A study of Caenorhabditis elegans with 2 samples.

Results

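Endoplasmic reticulum (ER) stress genes of Caenorhabditis elegans were examined for binding of M03D4.4, a protein with predicted C2H2 zinc fingers. The set held 10 genes, taken by name from the Ensembl annotation of WBcel235 (the assembly also called ce11), out of 19973 nuclear protein-coding genes. The chaperone group had 6 genes, hsp-3, hsp-4, enpl-1, pdi-2, pdi-6 and crt-1. The stress sensor group had 4 genes, atf-6, ire-1, pek-1 and xbp-1. All 10 were found in the annotation.

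Chromatin was sonicated and recovered with an antibody to GFP, and the recovered DNA was sequenced. The strain, OP696, has the genotype unc-119(tm4063) III; wgIs696, and its transgene adds a C-terminal GFP-FLAG tag to M03D4.4. Both biological replicates were mixed-stage embryos of mixed sex, 2 h after synchronization by egg bleaching, and they form 1 group with no second condition. Whole embryos were used, so a low signal from few bound cells and a low signal in every cell cannot be told apart, and peaks of other tagged proteins are not analysed here, so recovery that does not depend on M03D4.4 cannot be told apart. The files hold peaks and no expression levels, so the stage could not be checked against marker genes.

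The ER folds secreted and membrane proteins, and unfolded proteins in its lumen start the unfolded protein response. HSP-3 and HSP-4 are both counterparts of the mammalian lumenal Hsp70 chaperone BiP, ENPL-1 is the counterpart of GRP94, PDI-2 and PDI-6 are protein disulfide isomerases, and CRT-1 is calreticulin. IRE-1 is a transmembrane kinase and endoribonuclease that splices the mRNA of the transcription factor XBP-1, PEK-1 is the counterpart of the eIF2α kinase PERK, and ATF-6 is a membrane-tethered transcription factor. In this response xbp-1 acts downstream of ire-1 and is grouped with the sensors by the list used here.

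A gene was assigned each peak whose summit fell in a window that began 1000 bp upstream of its 5′ end and closed 500 bp downstream of it. The strict list holds the peaks that passed the authors' irreproducible discovery rate (IDR) threshold, a measure of how well peaks rank alike in both replicates, and has 1423 nuclear peaks. Relaxed lists, made for the pool and for each replicate, hold 30000 peaks apiece, background included. The signal is the authors' own value per peak, of unstated scaling. It was used to rank peaks within a list, and also for medians and for ratios between genes and between replicates. With the scaling unstated, these ratios describe the listed values and do not measure a fold of binding. The signal ran from 147 to 2198 in the strict list, with a median of 205. All 1423 strict peaks were the 1423 strongest nuclear peaks of the pooled list.

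The DNA under the summits of the 4 genes with a strict peak is given first, with that of hsp-4 beside them for its lack of one. Each sequence is from ce11, is written 5′ to 3′ on the strand of the gene, and covers 50 bp on either side of the summit. The enpl-1 summit lay in its 5′ UTR, so the 100 bp just upstream of its 5′ end are shown in place of the summit. Capitals mark matches on either strand to the motif CCACG, the motif ACGTG, its longer form TGACGTG or the motif CCAAT, and a capital run can hold overlapping matches. In mammals CCAAT and CCACG are parts of the ER stress element, and TGACGTG is the core of sites bound by ATF6 and XBP1.
hsp-3 (chrX:6092135-6092235, minus strand): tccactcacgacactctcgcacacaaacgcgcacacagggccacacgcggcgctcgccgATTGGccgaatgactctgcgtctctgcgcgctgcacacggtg
enpl-1 (chrIV:11119198-11119297, plus strand): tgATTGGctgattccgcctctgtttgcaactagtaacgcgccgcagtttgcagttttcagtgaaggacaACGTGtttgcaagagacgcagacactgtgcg
pdi-2 (chrX:4523982-4524082, plus strand): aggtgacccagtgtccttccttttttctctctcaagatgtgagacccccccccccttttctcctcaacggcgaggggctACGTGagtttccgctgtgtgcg
atf-6 (chrX:12480637-12480737, plus strand): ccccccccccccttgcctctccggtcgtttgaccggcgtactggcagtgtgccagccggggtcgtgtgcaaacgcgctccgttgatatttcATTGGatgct
hsp-4 (chrII:7352698-7352798, minus strand): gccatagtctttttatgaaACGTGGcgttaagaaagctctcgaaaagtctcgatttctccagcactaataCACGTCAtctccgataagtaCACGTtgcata

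A strict peak lay in the window of 4 of the 10 genes, hsp-3, enpl-1, pdi-2 and atf-6 (40.0%, exact Clopper-Pearson 95% interval 12.2 to 73.8%). Of all protein-coding genes, 4.69% had one. The chaperones had 3 of 6 (50%, 11.8 to 88.2%) and the stress sensors 1 of 4 (25%, 0.631 to 80.6%), so the intervals overlapped over most of their range. Genes are not replicates, so no test was run between the groups. The intervals cover counting error only and treat genes as independent draws, which genes listed by name are not. The 4 strict signals, from 248 to 292, lay between the median of 216 and the upper quartile of 307 over all 936 genes with a strict peak.

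In the relaxed pooled list 9 of the 10 genes had a summit, against 38.3% of all protein-coding genes. All 6 chaperones and 3 of the 4 sensors were among them, and ire-1 was the exception. The replicate 1 list had a summit at 10 of 10 genes, against 39% of all genes, and the replicate 2 list at 9 of 10, against 39.5%. The median of the strongest pooled signal was 194 over the 6 chaperones and 84.0 over the 3 sensors with a peak, beside 70.1 over all 7650 coding genes with one. The chaperones ranged from 67.6 to 292 and the sensors from 64.9 to 283, so the groups overlapped along nearly their whole range. In replicate 1 the medians were 98.0 for chaperones, 46.3 for sensors and 40.4 for all genes with a peak. In replicate 2 they were 80.1, 45.5 and 37.1. The chaperone median was the higher in all 3 lists, and 1 sensor, atf-6, lay above the chaperone median in each.

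**Figure D1:**
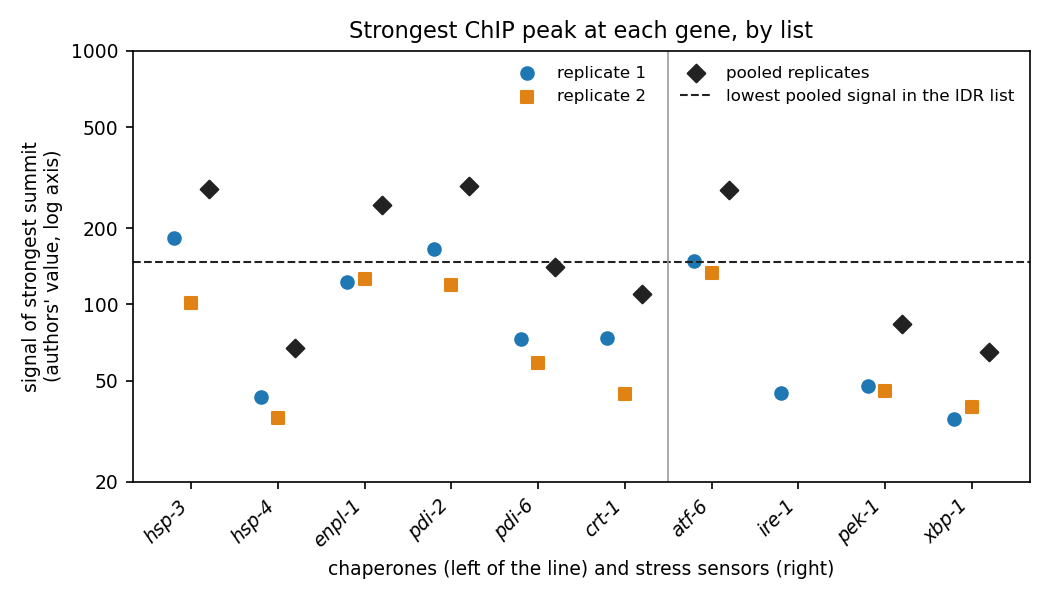
Signal of the strongest summit in the window of each of the 10 genes (vertical axis, log scale, the authors' unit). Diamonds show the pooled list, circles replicate 1 and squares replicate 2. A dashed line marks the lowest strict signal of 147, a pooled value to be read against the diamonds only. A vertical line parts chaperones from stress sensors. hsp-3, enpl-1, pdi-2 and atf-6 stand between 248 and 292 in the pooled list, and every other gene with a peak is at 141 or below.

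Among the chaperones, pdi-2 (WBGene00003963, chromosome X, 4524155 to 4526536, plus strand) had the strongest pooled peak, while hsp-3 had the highest signal in replicate 1 and enpl-1 in replicate 2. The pdi-2 signal was 166 in replicate 1, 119 in replicate 2 and 292 in the pool. The summit, at position 4524032, lay 123 bp upstream of the 5′ end, and the peak ranked 363 in the pooled list, in its top 1.21%. A second summit with a pooled signal of 134 lay 78 bp downstream of the 5′ end, in the 5′ UTR. The strict summit was also 14 bp upstream of the noncoding RNA gene C07A12.19. The targets next above pdi-2 in strict signal were rfc-4 (294) and eelo-2 (293), and those next below were sup-26 (291) and sec-61.G (290), the last a subunit of the ER translocation channel.

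The related isomerase gene pdi-6 (WBGene00015168, chromosome X, 7066342 to 7068563, minus strand) had no strict peak. Its signal was 73.0 in replicate 1, 58.5 in replicate 2 and 141 in the pool, with the pooled summit 7 bp downstream of the 5′ end. That is 95.9% of the lowest strict signal, so pdi-6 sat just outside the strict list. The pdi-2 signal was 2.08 times that of pdi-6 in the pool, 2.27 times in replicate 1 and 2.04 times in replicate 2.

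The BiP genes had unequal signals as well. The signal at hsp-3 (WBGene00002007, chromosome X, 6089028 to 6092124, minus strand) was 183 in replicate 1, 101.7 in replicate 2 and 284 in the pool. Its strict summit was intergenic, 61 bp upstream of the 5′ end and 400 bp upstream of the start of the transcript C15H9.6a.1. A weaker pooled summit of 93.6 lay 930 bp upstream, and replicate 2 held no summit matching it.

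The hsp-4 gene (WBGene00002008, chromosome II, 7350112 to 7352645, minus strand), whose transcription is widely used as a reporter of ER stress in worms, had no strict peak. Its strongest signal was 43.0 in replicate 1, 35.5 in replicate 2 and 67.6 in the pool, near the median of all coding genes with a peak. The summits lay 103 bp upstream in the pool, 122 bp upstream in replicate 1 and 228 bp upstream in replicate 2. The hsp-3 signal was 4.2 times that of hsp-4 in the pool, 4.26 times in replicate 1 and 2.86 times in replicate 2. The nearest strict summit was 50769 bp from the 5′ end of hsp-4.

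The GRP94 gene enpl-1 (WBGene00011480, chromosome IV, 11119298 to 11123155, plus strand) had signals of 123 in replicate 1, 126 in replicate 2 and 248 in the pool. Its strict summit, at position 11119357, was 59 bp downstream of the 5′ end and also 470 bp upstream of the divergent gene imp-2 (WBGene00011481). A window that reaches both genes does not tell which of them the peak belongs to, and enpl-1 had the nearer 5′ end. Of all 936 genes with a strict peak, 8.76% had the summit downstream of the 5′ end, and the median summit was 245 bp upstream.

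The calreticulin gene crt-1 (WBGene00000802, chromosome V, 6098992 to 6100542, minus strand) had relaxed peaks only. Its strongest signal was 73.4 in replicate 1, 44.3 in replicate 2 and 110 in the pool, which placed it in the top 9.77% of pooled peaks. The strongest summit of replicate 1, 277 bp upstream, was in its top 6.42%. That of replicate 2, in its top 22.0%, was a separate peak 884 bp upstream. Another replicate 2 summit, 189 bp upstream, had a signal of 44.1, in the top 22.3%. The pooled summit lay 190 bp upstream of the 5′ end. The replicate summits were spread, from 884 bp upstream to 63 bp downstream.

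**Figure D2:**
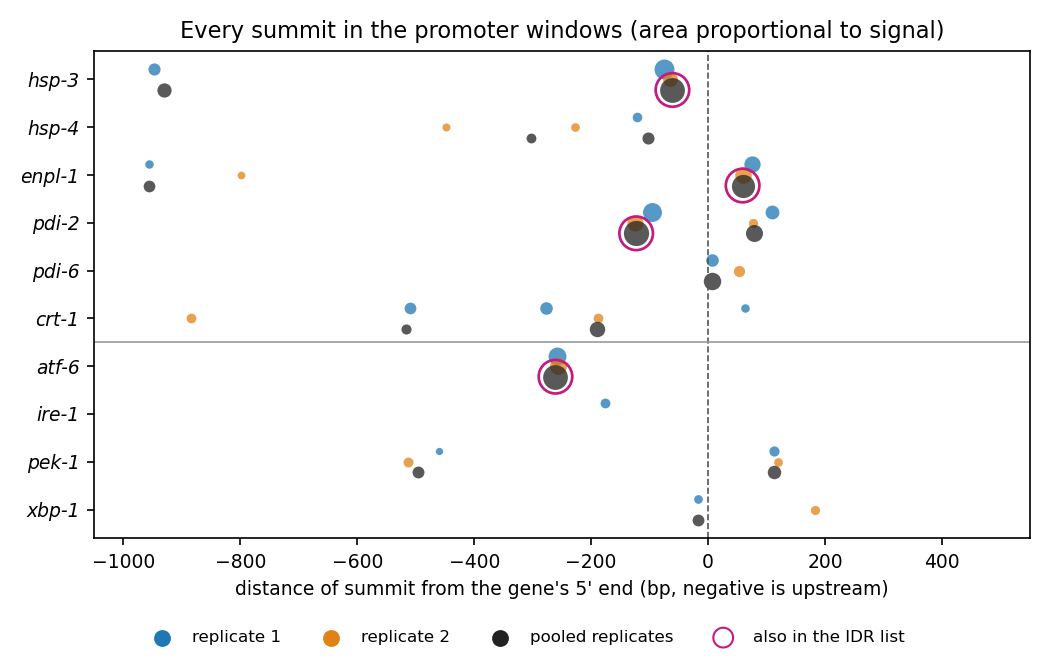
Distance of every summit in the window from the 5′ end of each gene (horizontal axis, bp, negative values upstream) in the pooled and replicate lists, with point area proportional to signal and a ring around summits also in the strict list. The strict summits of hsp-3, enpl-1, pdi-2 and atf-6 lie from 261 bp upstream to 59 bp downstream.

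Of the sensors, atf-6 (WBGene00000222, chromosome X, 12480948 to 12484904, plus strand) had the only strict peak. Its signal was 148 in replicate 1, 133 in replicate 2 and 283 in the pool. The summit, at position 12480687, lay 261 bp upstream of the 5′ end, and the replicate summits were 1 bp apart. The nearest other strict summit was 21799 bp from the 5′ end, and no other coding gene had this summit in its window.

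The other sensors stood near the level of an ordinary relaxed peak. The pek-1 gene (WBGene00003970, chromosome X, 11410176 to 11414887, minus strand) had signals of 47.9 in replicate 1, 45.5 in replicate 2 and 84.0 in the pool. The strongest summit was 112 bp downstream of the 5′ end in the pool and in replicate 1, but in replicate 2 it was 514 bp upstream. A weaker replicate 2 summit, with a signal of 35.3, lay 120 bp downstream. For xbp-1 (WBGene00006959, chromosome III, 4193809 to 4195358, plus strand) the signals were 35.3, 39.4 and 64.9, and the replicate summits were 199 bp apart.

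For ire-1 (WBGene00002147, chromosome II, 8112243 to 8124910, minus strand) the only summit in the window was one of replicate 1, with a signal of 44.8 at 177 bp upstream. Neither the pool nor replicate 2 held one. The nearest pooled summit was 1427 bp upstream, with a signal of 103, and the nearest strict summit 3979 bp upstream, with a signal of 202, both outside the window. The lowest listed signal was 41.1 in the pool and 22.8 in replicate 2. The lists hold called peaks only, so the signal at ire-1 in the pool and in replicate 2 is not known. Why no summit was listed there was not tested.

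The replicates were compared peak by peak at the strict summits. Over 1418 strict peaks found in both replicates, replicate 2 over replicate 1 had a median log2 ratio of -0.19, and the SD of that ratio among peaks was 0.46. The ratio was -0.85 at hsp-3, and 5.5% of the peaks had as low a ratio. It was -0.47 at pdi-2, -0.15 at atf-6 and 0.04 at enpl-1, each within 1 SD of the median. The replicate summits were 10 bp apart at hsp-3, 16 bp at enpl-1 and 29 bp at pdi-2. Where the peak was relaxed only, summits were farther apart at some genes, 106 bp at hsp-4 and 88 bp at crt-1. At pek-1 the downstream summits, with signals of 47.9 and 35.3, were 8 bp apart.

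**Figure D3:**
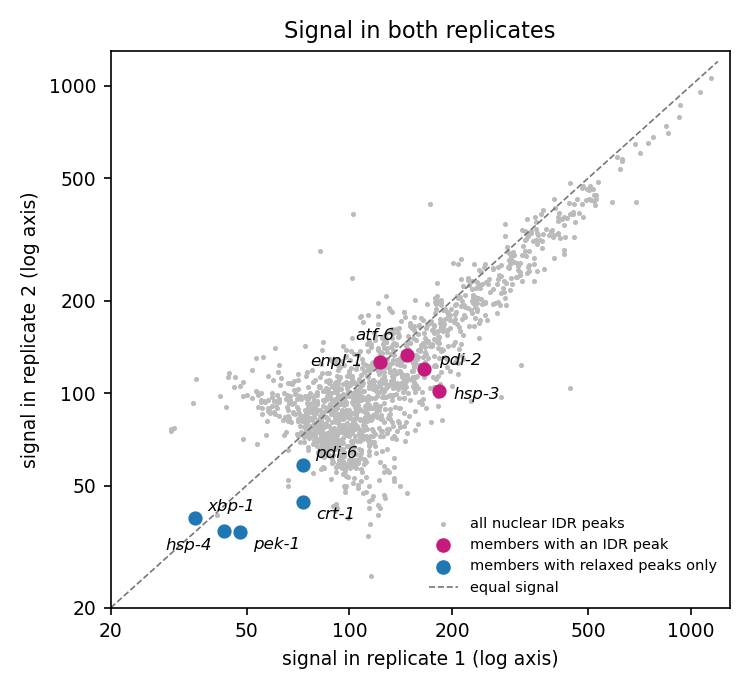
Signal in replicate 2 against replicate 1 (both axes log scale, the authors' unit), with a grey point for each strict peak found in both and coloured points for the strongest pooled peak of each gene matched in both replicates. The 4 genes with a strict peak lie among the grey points, hsp-3 on the side of the higher replicate 1 signal, and ire-1 is absent for want of a pooled peak.

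The genes were also counted by chromosome. On X, 3 of 5 genes had a strict peak (60%, 14.7 to 94.7%), against 5.31% of all coding genes on X. On the autosomes it was 1 of 5 (20%, 0.505 to 71.6%), against 4.59%. The intervals overlap widely, and the difference was not tested. None of the 4 strict summits was near a tRNA, rRNA, snRNA, snoRNA or microRNA gene, the nearest being 22440 bp from the atf-6 summit.

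Base composition differed between the windows as well. The 50 bp on either side of the summit were 65.3% G+C at hsp-3, 63.4% at atf-6, 57.4% at pdi-2 and 53.5% at enpl-1. Over 710 other strict summits in promoters the median was 49.5%, with quartiles of 44.6 and 54.5%, so hsp-3, atf-6 and pdi-2 were above the upper quartile. The flanks 200 to 300 bp away had 39.1, 30.2, 47 and 27.2% in the same order. Of the genes with relaxed peaks only, hsp-4 had 41.6%, pek-1 42.6% and xbp-1 45.5%, while pdi-6 had 53.5% and crt-1 52.5%. The part of base composition in the signal was not tested.

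Motif letters of the ER stress response were read in the same windows around the summits. At enpl-1 this window lies downstream of the printed sequence, so the capitals printed there are not the matches counted within 50 bp. CCAAT was within 50 bp of the strict summits of hsp-3, enpl-1 and atf-6, and in 13.9% of the 710 other windows. ACGTG was at enpl-1 and pdi-2, against 9.01%. CCACG (16.2% of other windows), TGACGTG (1.55%) and the heat shock letters GAANNTTC (3.94%) were in none of the 4. Within 100 bp, CCACG was present at hsp-3, TGACGTG and the shorter ACGTG were present there too, and CCAAT was at all 4. The absence of CCACG and TGACGTG therefore held only for the narrower window. Within 100 bp of the 710 other summits the shares were higher too, 25.1% for CCACG, 1.97% for TGACGTG, 16.3% for ACGTG and 27% for CCAAT. With 4 windows these shares are coarse. At the pooled summits of the genes without a strict peak, CCACG was at hsp-4, crt-1 and xbp-1 and TGACGTG at hsp-4, against 11.5 and 1.12% of 8694 other pooled summits in promoters. ACGTG was at hsp-4, pdi-6, crt-1 and xbp-1, against 9.91%, and CCAAT at pdi-6, against 18.9%. A match is a run of letters, not a bound site.

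In the 300 bp upstream of the 5′ end, TGACGTG was present at hsp-3, hsp-4 and crt-1, and in 2.82% of all coding genes. CCACG was present at 6 of the 10 genes, against 20.7%, and ACGTG at 7 of 10, against 27.2%. CCAAT was at 6 of 10, against 45.1%, and GAANNTTC at hsp-4, pek-1 and xbp-1, against 19%.

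The words of 7 bases most over-represented at other strict promoter summits relative to their flanks were led by CTTGCGC (7.7% of windows), then GCGTGCC (3.28%), AGTGCGC (8.69%), then CCGCGCA (4.26%) and CGGCCAC (3.44%). These were read in 610 windows, which leave out summits within 500 bp of a small RNA gene, and at least 1 of the words was in 142 of them (23.3%). Within 100 bp the share was 27.9%. None of the words was within 50 or 100 bp of the 4 strict summits, and CGGCCAC was at the pooled summit of xbp-1. The words were picked in the same 610 windows, so those shares are no independent base for the 4 summits.

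Other ER genes were counted by role. Of 56 genes matched in the annotation, 15 had a strict peak (26.8%, 15.8 to 40.3%), against 4.69% of all coding genes. Translocation and early processing of new chains had 9 of 17 (52.9%, 27.8 to 77%). They included dnj-29 (711), a J-domain protein gene, dad-1 (568), an oligosaccharyltransferase subunit, and spcs-2 (434), a signal peptidase subunit. The channel subunit gene sec-61.B and trap-3 (383 each) shared 1 summit, and sec-61.G (290) and sec-61.A (245) encode further channel subunits.

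Other folding genes had 4 of 21 (19.0%, 5.45 to 41.9%). They were uggt-1 (236), the glucosyltransferase that senses misfolded glycoproteins, pdi-1 (160), dnj-7 (155) and pdi-3 (149). Degradation genes had 2 of 13 (15.4%, 1.92 to 45.5%), cdc-48.1 (626), the segregase that extracts proteins, and cup-2 (180), a Derlin. None of the 5 other signalling genes, atf-4, gcn-2, eif-2alpha, rtcb-1 and manf-1, had a strict peak (exact interval up to 52.2%). All 5 had a pooled peak, against 38.3% of all coding genes. The signals of dnj-29, cdc-48.1, dad-1, spcs-2, sec-61.B and trap-3 were above that of pdi-2. The names of uggt-1, pdi-1, dnj-7, pdi-3 and cup-2 were added after their values were seen.

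**Figure D4:**
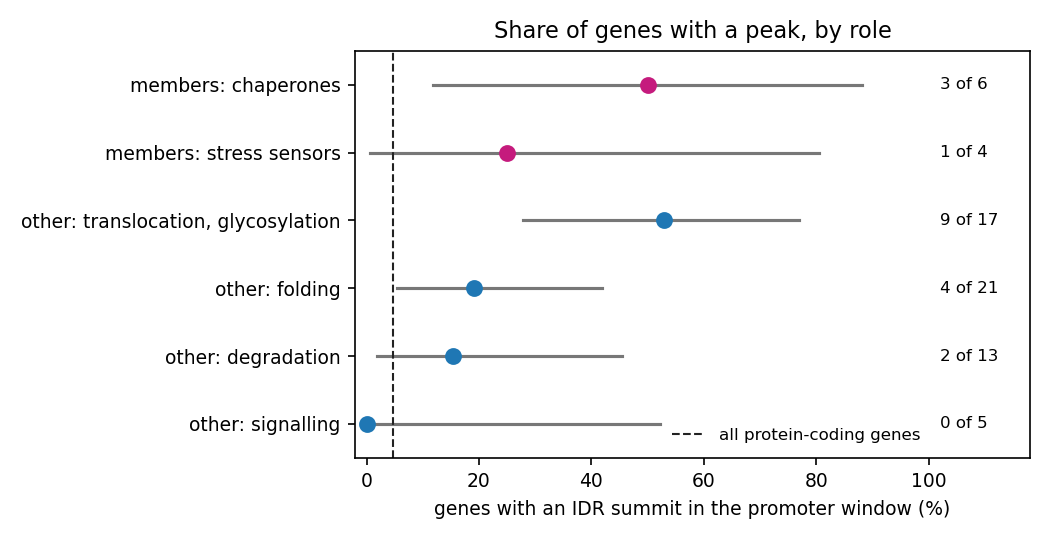
Share of genes with a strict peak (horizontal axis, percent) by group, with exact 95% intervals as horizontal lines and the 4.69% of all coding genes as a dashed line. Chaperones, at 50%, and translocation genes, at 52.9%, have the highest shares among the ER groups, and the intervals of the small groups are wide.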

How the data were processed

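Peaks came from chromatin immunoprecipitation of M03D4.4-GFP in 1 group of 2 biological replicates, per the labels. The deposited signal of each peak is the authors' value. Relaxed lists were called with a control, and together they gave the IDR list, per the file headers. How reads were aligned, peaks called and the signal scaled, and the IDR threshold, is not given in the sources used here. Depth is unknown. The ce10 lists were not used. Genes came from Ensembl release 115. Tables were handled in Python 3.11.15 with pandas 2.3.3 and NumPy 2.4.6, intervals came from SciPy 1.17.1 and plots from Matplotlib 3.10.9. The assignment of summits to genes by window was tested on simulated summits.

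Members and gene lists were chosen with earlier results of these data known. Named were the 10 genes, up to 12 listed genes by signal, the neighbours of the strongest member in signal and genes sharing a summit, except an item that is not reported here. Replicate peaks were matched where they overlapped by at least 50% of either. Among several, the widest overlap was taken first. After stray points had been seen in the plot of replicate signal, the nearest summit was used instead, which changed 28 matches. Both results are given in the closing section. The minimum of 20 windows for words, and the runs of C or G, were also chosen after values were seen. Alternatives were other windows, target rules, peak sets and single replicates.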

Additional observations from a re-analysis of the deposited data

How the results depend on the processing

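The same 4 genes, 3 chaperones and 1 sensor, had a peak under all 9 alternatives. Other target rules were a window cut to 500 bp upstream, assignment by nearest 5′ end, any transcript's 5′ end and overlap of the peak with the window. Other peak sets were the stronger 711 strict peaks, the strongest pooled peaks and the strict list without peaks near small RNA genes. For each replicate alone, the 1423 strongest peaks of its relaxed list were taken, with no IDR threshold. The 1423 strongest pooled peaks are the strict list itself, so that alternative was bound to give the same counts. A shorter window, the stronger 711 peaks and leaving out peaks near small RNA genes could only lose genes. The 4 summits lay from 261 bp upstream to 59 bp downstream and ranked 363 to 510. They were at least 22440 bp from such genes, so none could be lost. Other target rules could add genes but not lose these 4, each having the nearest coding 5′ end. Only single replicates could have lost any of the 4. Under these 9 alternatives the share of all coding genes with a peak ran from 2.59 to 6.3%. A relaxed peak was found at 9 genes with 500 bp upstream, against 30.9% of all coding genes. In the stronger part of the pooled list it was 9 as well, against 24.4%. Replicate 2 alone had 9, against 39.5%, and replicate 1 alone had 10, against 39%. With 500 bp upstream, 12 of the 56 other ER genes had a strict peak, against 3.63% of all coding genes. In the stronger 711 peaks it was 10, against 2.59%. Among the 1423 strongest peaks of replicate 2 it was 15, against 4.45%, and among those of replicate 1 it was 13, against 4.56%. The median rank of the strongest summit was the top 5.19% of the pooled list, 9.08% without replicate 1 and 6.46% without replicate 2. Without replicate 1 the rank of hsp-3 went from 1.28 to 2.32%, that of pdi-6 from 5.19 to 9.08% and that of crt-1 from 9.77 to 22.0%. Without replicate 2 that of crt-1 was 6.42%, and the strongest summit of crt-1 lay at a different place in each of these lists. Motif and gene matches numbered 5 within 50 bp and 9 within 100 bp, the wider window holding more letters. Matching replicate peaks by the widest overlap, the choice used first, gave a median log2 ratio of -0.18 (SD 0.52) in place of -0.19 (SD 0.46), and left the ratios of hsp-3 (-0.85), enpl-1 (0.04), pdi-2 (-0.47) and atf-6 (-0.15) as they were. With 2 replicates of 1 group, no comparison of conditions could be made. No paired analysis was possible because there is only 1 group.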

Other observations

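A list of cytosolic and mitochondrial chaperone genes also held hsf-1, the heat shock transcription factor gene, which had no strict peak. Of the 15 matched genes in the list, 7 had a strict peak (46.7%, exact 95% interval 21.3 to 73.4%), against 4.69% of all coding genes. They were led by the mitochondrial chaperonin gene hsp-60, with a signal of 565, the cytosolic Hsp70 gene hsp-1, with 553, and cct-8, a subunit of the cytosolic chaperonin, with 251. The listed names daf-21 and emo-1 are older names of hsp-90 and sec-61.G, which were each counted once.

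The summit windows of pdi-2 and atf-6 each hold an unbroken run of C, of 11 and 12 bases. A run of at least 10 C or G was in 10 of the 710 other strict promoter windows (1.41%) and in 2 of their 1420 flanks (0.141%). In the lower part of the pooled list it was in 28 of 3942 promoter windows (0.71%). This feature was picked after the sequences had been read, so its shares are a description.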
